A study of Homo sapiens with 18 samples.

Results

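The genes described here are 32 targets of the transcription factor p53, taken as a list of gene symbols and followed through all 18 libraries of the series. Each of the 32 symbols was found once among the 57500 genes of the count table, and all 32 had enough reads to be tested, with 16994 genes tested in all. The libraries are polyA RNA-seq of IMR90 cells, an established line of human lung fibroblasts, in 6 groups of 3. Prol libraries came from proliferating cells and Sen (IR) libraries from cells driven into senescence by X-ray irradiation. Sen (IR) + CCCP cells were irradiated and, from the day after, exposed for a short period to CCCP, an uncoupler that depolarises mitochondria, then cultured on until collection. Per the study's methods, this treatment was used to clear their mitochondria. The remaining groups were irradiated, CCCP-treated cells given acetate repeatedly, mtDNA isolated from IMR90 mitochondria and transfected late in the protocol, or both. All libraries come from 1 cell line. The labels do not say whether replicates were separate cultures, while the study's figure legends count independent experiments as n, so the p-values measure the spread between these samples of 1 line only. In bulk RNA, fewer cells expressing a gene and less RNA of it per cell cannot be told apart.

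p53 is held at a low level in unstressed cells because one of its own targets, MDM2, marks it for destruction. DNA damage and other stresses stabilise p53, which then binds DNA as a tetramer and switches on genes for cell cycle arrest, DNA repair, apoptosis, antioxidant defence and metabolism. Many of these genes are also reached by other transcription factors, and GDF15, a secreted stress cytokine, is a well known target of the ATF4 arm of the integrated stress response as well.

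The DNA element that p53 recognises is shown first, because it is what the name p53 target refers to. Each half-site holds 3 purines, a core of C, 2 positions of A or T, and G, and then 3 pyrimidines, and a full site is a pair of half-sites up to 13 bases apart. RefSeq promoter windows of GRCh38.p14, running from 250 bases before to 50 bases after a transcription start, were given for 27 of the 32 genes. No window was given for RRM2B, ASCC3, GADD45A, TP53INP1 and PHLDA3. Some genes had several windows, each with its own start, and a hit in any of them counted. The number of windows per gene was not matched to that of all gene symbols. An exact half-site stood in a window of 8 of the 27 genes (29.6%), against 8.1% of the 27305 gene symbols with a window. A full site with at most 2 mismatches and both cores intact stood in 3 of the 27 genes (11.1%), against 1.8% of all symbols. Those 3 sites are printed from 5′ to 3′ on the strand of the gene, with the cores in capitals.
AEN: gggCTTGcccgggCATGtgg
DDB2: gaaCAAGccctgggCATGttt
PTCHD4: aggCTTGcccagaCTTGccc
The AEN site lies at chr15:88621306-88621325 on the plus strand and begins 34 bases before the start, with 2 mismatches. The DDB2 site lies at chr11:47214979-47214999 on the plus strand, begins at base 6 after the start, and has 0 mismatches and a spacer of 1 base. The PTCHD4 site lies at chr6:48111198-48111217 on the minus strand and begins 20 bases before the start, with 0 mismatches and no spacer. The other exact half-sites were FDXR gggCTTGccc, PANK1 gggCATGctc, PLK2 agaCTTGctt, RPS27L agaCAAGccc and SESN1 ggaCAAGtct. These are matches of letters in a short window, and sites elsewhere in the genes were not looked for.

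**Figure D1:**
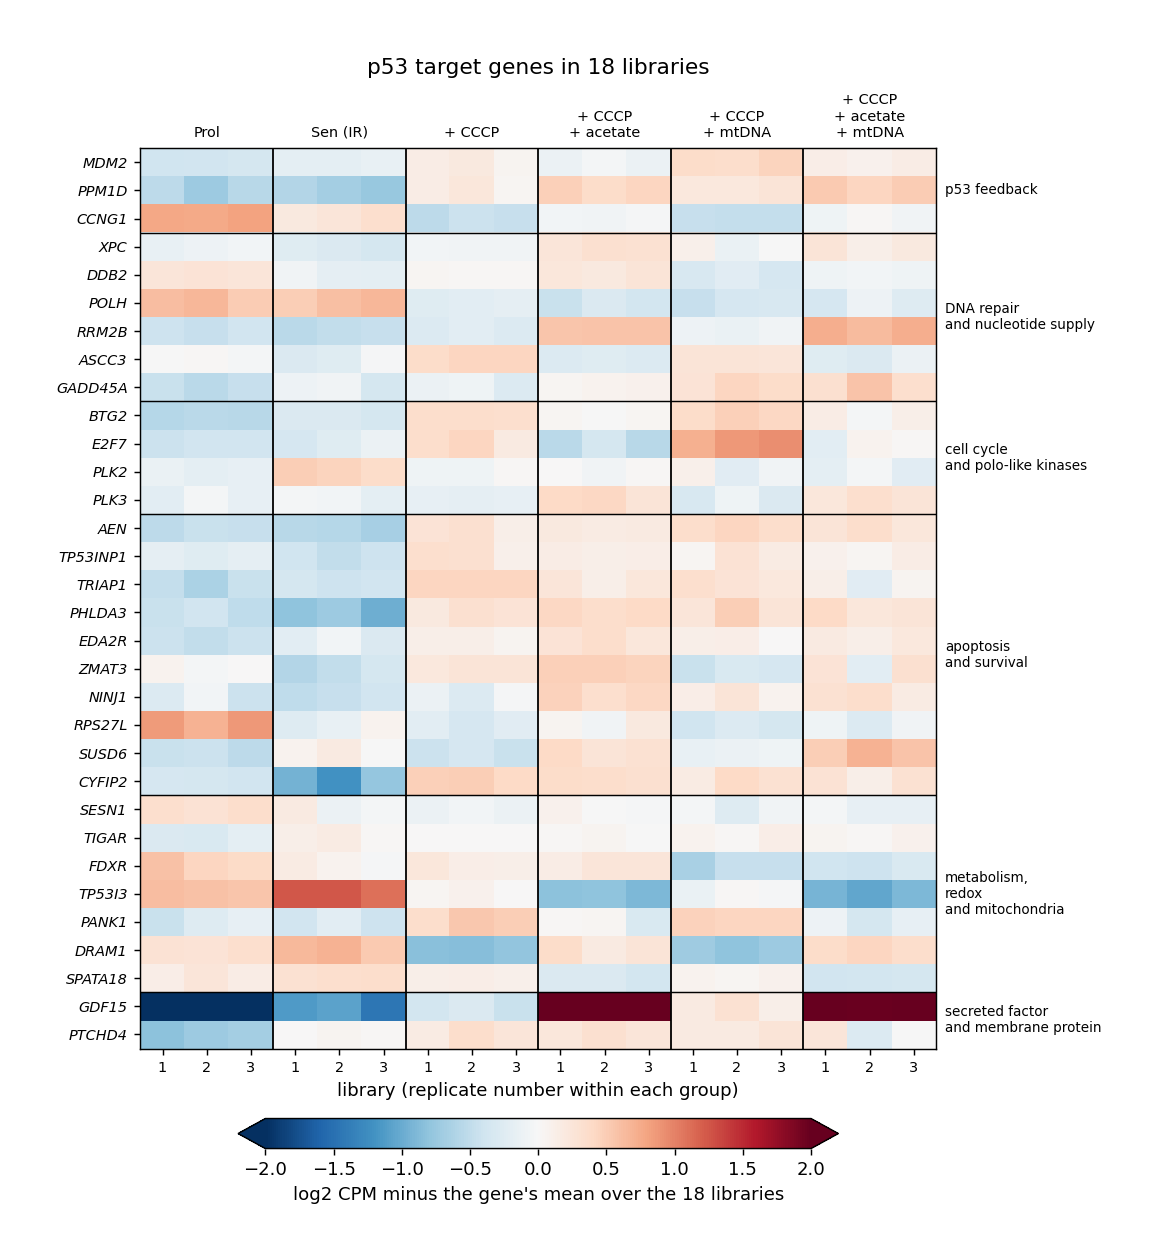
Level of the 32 p53 target genes (vertical, in blocks by role) in the 18 libraries (horizontal, 3 per group), as log2 CPM minus the gene's mean over all libraries, with colours ending at 2 above and below the mean. GDF15 runs from the lowest colour in Prol to the highest in both groups with acetate, while the other rows shift by smaller amounts and in differing directions.

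Library depth ran from 24624886 to 46224280 counts on genes, and normalisation factors (TMM) from 0.87 in Prol to 1.13 in Sen (IR) + CCCP. The 13 protein-coding mtDNA genes took 1.75 to 2.89% of counts in Prol and Sen (IR) libraries and 0.0461 to 0.237% in the libraries with CCCP. Fibroblast markers summed to 1873 CPM (counts scaled to the effective library size) or more in every library, and falls of all 7 of them went with CCCP (COL1A1 by 2.95 on the log2 scale against Sen (IR)). The epithelial, endothelial and immune lists summed to at most 3.36 CPM in any library. Both replicate 3 of Sen (IR) and replicate 2 of the acetate + mtDNA group stood apart. Chi-square per degree of freedom over gene counts was 27.7 and 22.2 between the former and its partners and 28.3 and 24.8 between the latter and its own, beside 2.78 to 7.75 for all other pairs within a group. Sen (IR) replicate 3 had 2.64% of counts on mtDNA genes against 1.94 and 1.75% in its partners, and 368 CPM summed over 5 interferon-response genes against 384 and 405 CPM. Combination replicate 2 had 0.237% of counts on mtDNA genes against 0.0640 and 0.0624% in its partners, and 2925 CPM on the interferon-response genes against 752 and 754 CPM. The counts of Sen (IR) against Prol and of Sen (IR) + CCCP against Sen (IR) are also given without the former library. Those of acetate + mtDNA against Sen (IR) + CCCP are also given without the latter. The counts by role, of the other gene lists and of calls shared between comparisons are from all libraries only.

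Among themselves the targets differed widely in abundance and in how far they moved. On the length-corrected TPM scale, averaged over the 6 group means, levels ran from 465 TPM for GDF15, 349 for RRM2B and 316 for CCNG1 down to 9.40 for CYFIP2 and 5.92 for PANK1. The highest group mean of a gene was a median of 1.94 times its lowest on the CPM scale. For 21 of the 32 genes this ratio was under 2, and it was not computed for all genes tested. GDF15 stood alone with a ratio of 31.1, followed by TP53I3 with 4.44, and the smallest ratio was 1.29 for TIGAR, a phosphatase that lowers glycolysis. No group held the maximum of most genes: Prol was the highest group for 6 genes, Sen (IR) for 5, Sen (IR) + CCCP for 5, acetate for 7, mtDNA for 4 and acetate + mtDNA for 5.

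The comparison of Sen (IR) with Prol asks how the targets stand in established senescence. They went both ways: 12 of 32 rose and 11 fell at the threshold used throughout (adjusted p under 0.05, quasi-likelihood test of edgeR), against 26.7% of all tested genes higher and 29.9% lower. The median log2 fold change of the list was -0.03, beside -0.01 for all genes tested. Without Sen (IR) replicate 3 the counts were 12 higher and 12 lower, with RRM2B added (-0.11, adjusted p = 0.0333), and the median stayed at -0.03. GDF15 was the 1 member that changed by more than 1 on the log2 scale, a share of 3.1% where 13% of all genes did so.

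GDF15 read 15.5, 17 and 13.6 CPM in the 3 Prol libraries and 48.7, 50.5 and 39.2 CPM in Sen (IR), a log2 fold change of 1.60 ± 0.10 (SE, adjusted p = 1.43e-11). PTCHD4, which encodes a Patched-domain membrane protein, read 7.63, 8.14 and 8.37 CPM in Prol and 13.6, 13.9 and 13.6 CPM in Sen (IR), a difference of 0.76 ± 0.10 (adjusted p = 8.99e-07). TP53I3, a quinone oxidoreductase linked to reactive oxygen species, read 29.6, 29.1 and 28.5 CPM against 46.0, 45.8 and 41.6 CPM, or 0.62 ± 0.06 (adjusted p = 9.06e-09). For all 3 genes every senescent library was above every proliferating one. Genes named this way were picked as the largest called changes, so such gaps follow largely from that choice, here and below. In this comparison groups did not overlap for 22 called members and overlapped for 1. Among members not called, 4 did not overlap and 5 did. The share over all genes was not computed. MDM2 rose far less, from 271, 275 and 279.8 CPM to 313, 313 and 321 CPM, with a log2 fold change of 0.20 ± 0.05 (adjusted p = 7.91e-04), and its groups did not overlap either.

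The falls were led by RPS27L, a ribosomal protein paralogue tied to p53 stability, which went from 302, 269 and 304 CPM in Prol to 139, 150.4 and 175 CPM in Sen (IR), a change of -0.91 ± 0.08 (adjusted p = 1.59e-09). CYFIP2, a subunit of the WAVE complex that drives actin assembly, went from 15.3, 15.1 and 14.7 CPM to 10.02, 8.37 and 11.2 CPM, or -0.60 ± 0.09 (adjusted p = 4.55e-06). CCNG1, cyclin G1, went from 355, 352 and 363 CPM to 237, 245 and 261 CPM, or -0.53 ± 0.05 (adjusted p = 2.09e-09). In these genes, too, no library of one group reached the other.

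By role, 3 of the 6 repair genes fell: the damage recognition factors DDB2 (-0.39) and XPC (-0.19), and the helicase ASCC3 (-0.17), while the stress sensor GADD45A rose by 0.31. Of the cell cycle genes, the antiproliferative factor BTG2 (0.24) and the polo-like kinase PLK2 (0.60) rose. Among the 10 apoptosis and survival genes, the membrane protein SUSD6 (0.55) and the TNF-receptor family member EDA2R (0.27) rose, and 5 fell, among them the RNA-binding protein ZMAT3 (-0.49), the Akt inhibitor PHLDA3 (-0.38) and TP53INP1 (-0.24). Of the 7 metabolic genes, TIGAR (0.36), the lysosomal autophagy protein DRAM1 (0.33) and the mitochondrial quality control gene SPATA18 (0.15) rose beside TP53I3, whereas ferredoxin reductase FDXR (-0.39) and the mTORC1 inhibitor SESN1 (-0.31) fell. ASCC3 was the 1 called gene whose groups overlapped. The calls of SPATA18 and ASCC3 were lost without Prol replicate 1 (adjusted p = 0.0765) and without Sen (IR) replicate 1 (adjusted p = 0.0893), respectively. Outside the list, 5 of 23 other p53 targets rose and 7 fell. Over all genes tested, 26.7% rose and 29.9% fell, the shares to set beside each list in this paragraph. CDKN1A, the p21 gene of cell cycle arrest, rose by 0.50. Of 18 regulators and cofactors 3 rose and 9 fell, and of 11 integrated stress response genes 3 rose and 8 fell. All 11 cell cycle genes (such as MKI67) fell, and their summed level was 444 to 457 CPM in Prol and 184 to 194 CPM in Sen (IR).

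Cells treated with CCCP are called depleted below. The series has no group with CCCP and mitochondria kept, so exposure to CCCP and loss of mitochondria cannot be told apart. Next, Sen (IR) + CCCP was compared with Sen (IR), which asks how the targets stand after this treatment. Here the list moved mostly upward: 19 of 32 genes rose and 7 fell, against 34.0% and 31.3% of all genes, and the median was 0.24 beside 0.03 for all genes. Without Sen (IR) replicate 3, 18 were higher and 8 lower, with a median of 0.23: PTCHD4 no longer passed (adjusted p = 0.0642) and TIGAR did (-0.12, adjusted p = 0.0237). By role, of the 10 apoptosis and survival genes, 8 rose and 1 fell, with a median of 0.71, whereas 1 of the 7 metabolic genes rose and 3 fell, with a median of -0.12. Changes over 1 on the log2 scale were made by 4 members (12.5%, against 18.4% of all genes).

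CYFIP2, which had fallen on irradiation, read 26.8, 27.2 and 25.3 CPM with CCCP, above its levels in Prol, and its change from Sen (IR) was 1.42 ± 0.08 (adjusted p = 2.10e-12). PHLDA3 went from 32.4, 34.0 and 28.7 CPM to 64.2, 69.9 and 68.0 CPM, or 1.09 ± 0.07 (adjusted p = 9.88e-12). GDF15 rose again to 82.4, 86.9 and 78.0 CPM, a change of 0.84 ± 0.09 (adjusted p = 4.12e-08). None of these groups overlapped. MDM2 read 394, 409 and 372 CPM, which was 0.31 ± 0.05 above Sen (IR) (adjusted p = 2.95e-06).

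In the other direction, DRAM1 fell from 386, 396 and 352 CPM in Sen (IR) to 137, 136 and 142 CPM, a change of -1.45 ± 0.05 (adjusted p = 1.30e-15). TP53I3 fell to 19.8, 20.6 and 19.5 CPM, or by -1.15 ± 0.06 (adjusted p = 2.25e-13), which put it below Prol. POLH, the translesion polymerase that copies past ultraviolet lesions, fell from 57.3, 61.7 and 64.0 CPM to 34.4, 35.2 and 35.8 CPM, or -0.80 ± 0.06 (adjusted p = 3.44e-10). Each of these depleted libraries was under every library of Sen (IR).

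Further risers were the p53 phosphatase PPM1D (0.81), the nuclease AEN (0.84), the mitochondrial survival factor TRIAP1 (0.81), PANK1 (0.80), which starts coenzyme A synthesis, ZMAT3 (0.72), TP53INP1 (0.69), BTG2 (0.65), ASCC3 (0.59) and the repressor E2F7 (0.55). Smaller rises were seen for NINJ1 (0.31), which acts in plasma membrane rupture, EDA2R (0.28), the ribonucleotide reductase subunit RRM2B (0.25), XPC (0.23), PTCHD4 (0.23) and DDB2 (0.18). CCNG1 (-0.73), PLK2 (-0.48), SUSD6 (-0.48) and SPATA18 (-0.21) fell. PTCHD4 no longer passed on leaving out any of 4 libraries, with an adjusted p of up to 0.147 when replicate 2 with CCCP was dropped. Of the other p53 targets 12 of 23 rose and 7 fell, and of 18 regulators and cofactors of p53 13 rose and 4 fell, with the acetyltransferase genes EP300 (1.48) and CREBBP (1.34) at the top. Beside these counts and those that follow, 34.0% of all genes tested rose and 31.3% fell. All 11 integrated stress response genes rose, by 0.77 to 2.48 on the log2 scale, and 7 of the 11 cell cycle genes rose. The part of either list in these results was not tested.

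**Figure D2:**
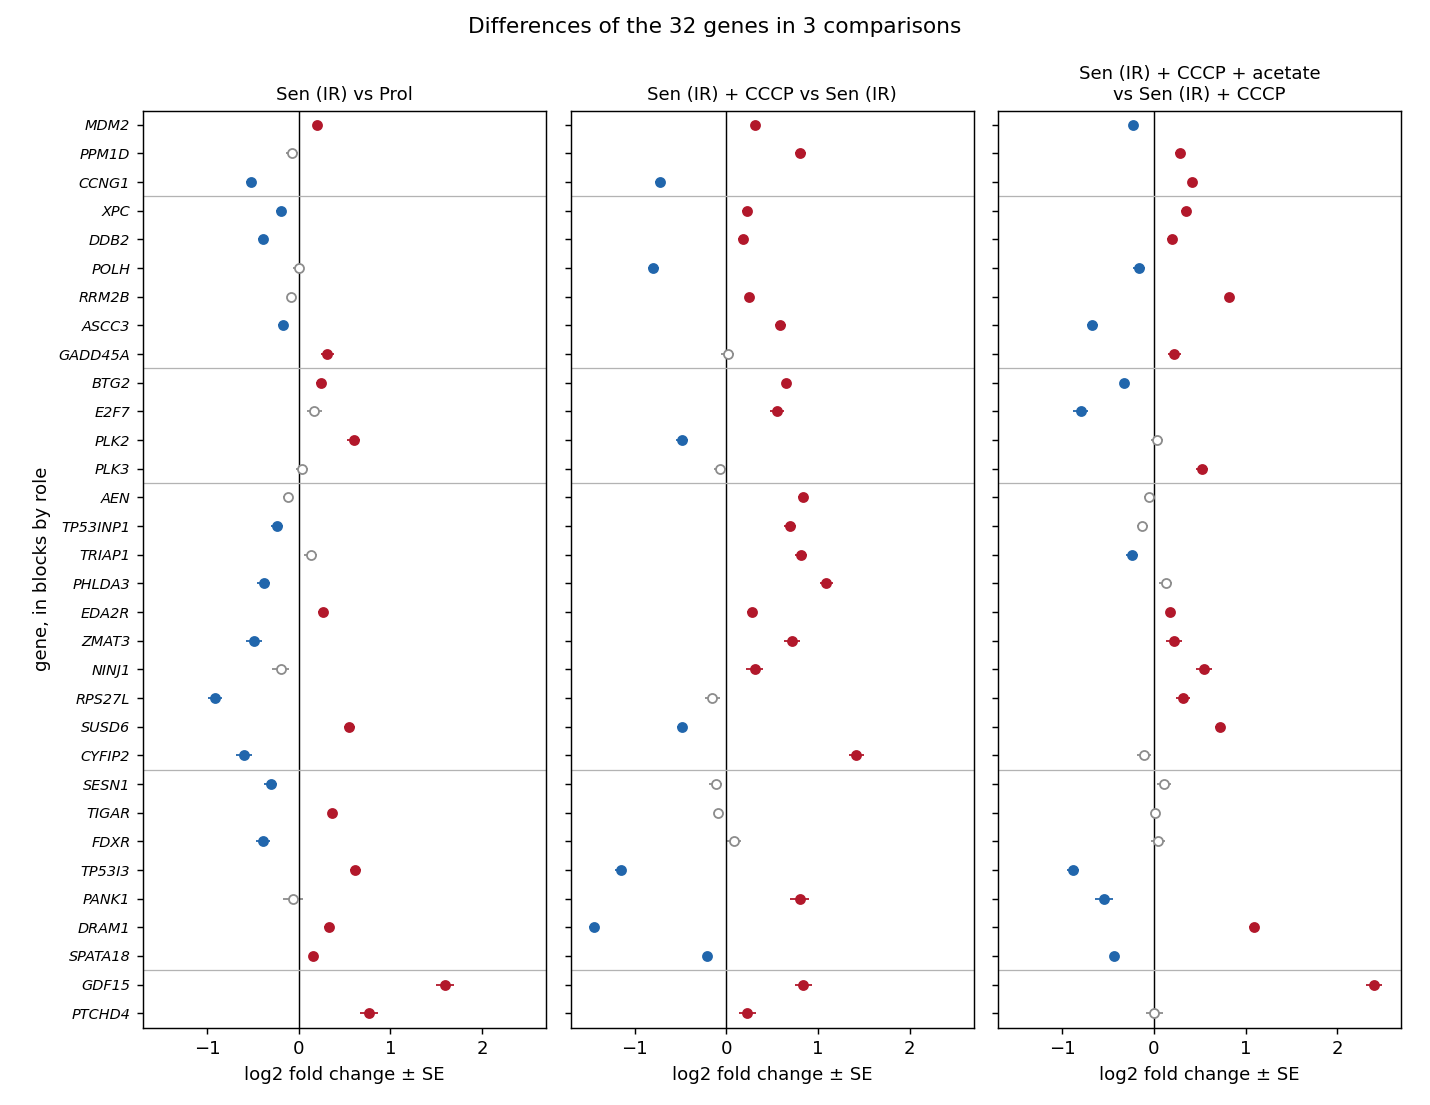
Log2 fold change with its SE (horizontal) of the 32 genes (vertical, in blocks by role) in 3 comparisons, from left to right Sen (IR) against Prol, Sen (IR) + CCCP against Sen (IR), and acetate against Sen (IR) + CCCP. Filled red points rose and filled blue points fell at an adjusted p under 0.05, and open points did not pass. The apoptosis and survival block lies mostly right of 0 in the middle panel, with 8 of 10 genes higher, where 34.0% of all genes tested were.

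Against Prol, the depleted irradiated cells had 18 targets higher and 8 lower, beside 35.1% and 34.1% of all genes, with a median of 0.25 against 0.03. This comparison shares its libraries with both comparisons above. GDF15 was 2.43 ± 0.10 above Prol (adjusted p = 3.42e-15) and PTCHD4, at 15, 17.2 and 15.9 CPM, was 0.99 ± 0.10 above it (adjusted p = 6.86e-09). TRIAP1 went from 38.3, 34.4 and 39.1 CPM in Prol to 71.8, 71.6 and 71.8 CPM, or 0.94 ± 0.07 (adjusted p = 5.54e-11). The groups were apart for all 3 genes. CCNG1 had the largest fall, to 144, 153 and 151 CPM (-1.26 ± 0.05, adjusted p = 5.28e-16). DRAM1, which irradiation alone had raised, stood below Prol with CCCP (-1.12 ± 0.05, adjusted p = 3.97e-14). RPS27L, at 144, 132 and 143 CPM, was -1.07 ± 0.08 from Prol (adjusted p = 5.34e-11) but not past the threshold against Sen (IR) (-0.15, adjusted p = 0.0915). MDM2 was 0.51 ± 0.05 above Prol (adjusted p = 1.49e-09). The small rise of ZMAT3 (0.23) was lost when any 1 of 5 libraries was left out, with an adjusted p of up to 0.0845 without Prol replicate 2.

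Acetate, a precursor from which cytosolic and nuclear acetyl-CoA can be made, was compared with no acetate in depleted cells. Of the 32 targets 14 rose and 9 fell, beside 28.8% and 28.3% of all genes, and the median was 0.08 beside 0.01. GDF15 and DRAM1 were the 2 members that moved by more than 1 on the log2 scale (6.2%, against 13.3% of all genes).

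GDF15 rose to 455, 427 and 427 CPM, a change of 2.40 ± 0.09 over Sen (IR) + CCCP (adjusted p = 3.33e-15). DRAM1 read 317, 277 and 292 CPM, near its Prol libraries of 298, 297 and 308 CPM, a rise of 1.09 ± 0.05 (adjusted p = 1.77e-13). RRM2B went from 318, 332 and 318 CPM to 562, 571 and 571 CPM, or 0.82 ± 0.04 (adjusted p = 5.60e-13). For all 3 genes the lowest library with acetate was well above the highest without. Those with the largest falls were TP53I3, which reached 11, 11.1 and 10.4 CPM (-0.88 ± 0.06, adjusted p = 1.02e-10), E2F7, which went from 64.6, 68.2 and 57.5 CPM to 34.8, 40.0 and 34.5 CPM (-0.80 ± 0.08, adjusted p = 1.94e-08), and ASCC3, which went from 354, 371 and 369 CPM to 228, 232 and 227 CPM (-0.67 ± 0.06, adjusted p = 1.90e-09). Their groups did not overlap. MDM2 fell to 328, 348 and 329 CPM (-0.22 ± 0.05, adjusted p = 2.03e-04).

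Of the feedback genes, then, MDM2 fell while PPM1D (0.29) and CCNG1 (0.42) rose. The repair genes XPC (0.35), GADD45A (0.22) and DDB2 (0.20) rose with RRM2B. SUSD6 (0.72), NINJ1 (0.55), RPS27L (0.32), ZMAT3 (0.22) and EDA2R (0.18) rose among the apoptosis and survival genes, where TRIAP1 (-0.24) alone fell. The stress kinase PLK3, which passed in none of the comparisons above, rose by 0.52. PANK1 (-0.54), SPATA18 (-0.43), BTG2 (-0.32) and POLH (-0.16) fell. The TRIAP1 call was lost without acetate replicate 2 (adjusted p = 0.0625). ZMAT3 was lost without replicate 1 or replicate 2 of either group (adjusted p of up to 0.0730). POLH was lost without any 1 Sen (IR) + CCCP library and without acetate replicate 1 or 3 (adjusted p of up to 0.238). With no filter on low counts POLH did not pass either (adjusted p = 0.0850). Of the other p53 targets 12 of 23 rose, CDKN1A by 0.75, and 6 fell. Over all genes tested 28.8% rose and 28.3% fell, which also stands beside the lists that follow. With acetate all 11 cell cycle genes fell by 1.44 to 3.30, to a summed 49.1 to 54.2 CPM from 296 to 324 CPM, and 9 of the 11 integrated stress response genes rose. The regulators and cofactors of p53 went both ways, with 5 of 18 higher and 7 lower. What part these lists have in the changes of the targets was not tested.

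Fewer targets were called with transfected mtDNA, which was given later in the protocol than acetate. The labels name no mock transfection, so mtDNA and the transfection itself cannot be told apart. With mtDNA against none in depleted cells, 7 rose and 3 fell, where 10.7% of all genes were higher and 7.40% lower, and the median was -0.01 beside 0.00. GDF15 was again the largest rise, to 121, 132 and 116 CPM (0.58 ± 0.09, adjusted p = 6.29e-05). E2F7 reached its highest level of the series, 83.4, 92.9 and 96.8 CPM (0.52 ± 0.08, adjusted p = 4.69e-05), in contrast to its fall with acetate. GADD45A went from 109, 110.2 and 97.0 CPM to 143, 157 and 151 CPM (0.52 ± 0.07, adjusted p = 1.66e-05). All 3 groups lay clear of the depleted cells without mtDNA. MDM2 read 462, 457 and 489 CPM, its highest group (0.26 ± 0.05, adjusted p = 2.39e-04).

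FDXR, the mitochondrial enzyme that passes electrons to ferredoxin for steroid and iron-sulphur cluster synthesis, fell from 15, 14.2 and 14 CPM to 8.21, 9.41 and 9.33 CPM (-0.68 ± 0.08, adjusted p = 1.55e-06). ZMAT3 fell from 363, 374 and 374 CPM to 230.4, 255 and 248 CPM (-0.60 ± 0.09, adjusted p = 4.22e-05). DDB2, whose promoter window holds a full site, fell from 36.2, 36.0 and 36.0 CPM to 28.3, 30.3 and 27.8 CPM (-0.32 ± 0.05, adjusted p = 5.54e-05). No library crossed between groups for these genes. Smaller rises belonged to NINJ1 (0.29), SUSD6 (0.28) and RRM2B (0.15). NINJ1 was lost on leaving out any of 4 libraries (adjusted p of up to 0.133, when replicate 2 with CCCP was dropped), and RRM2B had an adjusted p of 0.0543 when Sen (IR) + CCCP replicate 1 was left out and of 0.0539 when mtDNA replicate 3 was. Of the other p53 targets 7 of 23 rose and 1 fell, with PMAIP1 (1.19) and TRIM22 (1.10) the largest rises. Over all genes tested 10.7% rose and 7.40% fell, which also stands beside the stress response list below. CDKN1A was 0.06 above the depleted cells and did not pass. Integrated stress response genes rose in 9 of 11 cases beside GDF15, and 5 interferon-response genes summed to 3064 to 4442 CPM with mtDNA and 50.01 to 58.2 CPM without. Their part in the target changes was not tested.

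**Figure D3:**
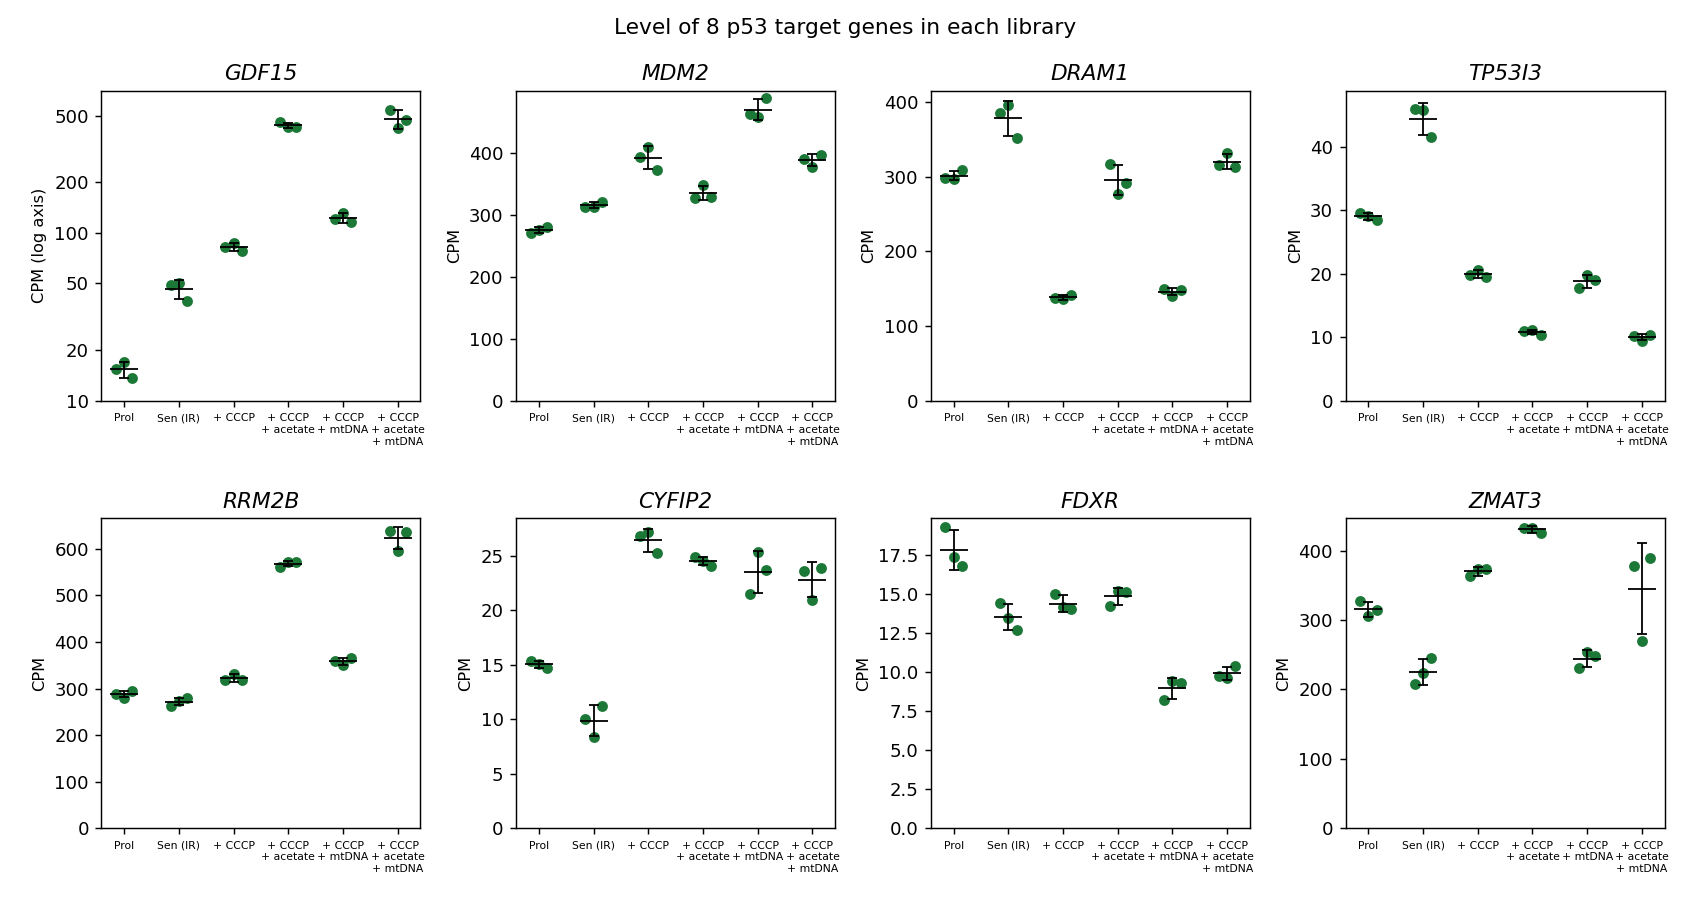
CPM (vertical) of 8 p53 target genes in each library (green points), with the group mean and SD (black), across the 6 groups. GDF15 is drawn on a log axis and the others from 0. DRAM1 and RRM2B are high in both acetate groups, FDXR is low in both mtDNA groups, and ZMAT3 in the combination has 1 library at 269.6 CPM beside 378 and 389.9 CPM.

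With acetate and mtDNA together, 10 targets were higher and 11 lower than in depleted cells, beside 30.3% and 31.4% of all genes, and the median was -0.02 beside -0.04. The sign of this median depended on the processing: it was positive in all 6 fits that left out 1 library of these groups (0.000432 to 0.0302), at 0.00803 with DESeq2's size factors and at 0.00776 with its Wald test. GDF15 read 539, 420.1 and 472 CPM, the highest group by mean (2.53 ± 0.09, adjusted p = 1.69e-15), but its libraries overlapped those with acetate alone, from which it was 0.13 ± 0.09 apart (adjusted p = 0.356). DRAM1 read 315, 332 and 313 CPM (1.21 ± 0.05, adjusted p = 3.40e-14). SUSD6 went from 41.8, 44.8 and 41.4 CPM to 79.5, 90.8 and 83.5 CPM (0.98 ± 0.06, adjusted p = 3.46e-12). These combination libraries exceeded all depleted ones, and the same held in reverse for the largest falls. TP53I3 read 10.2, 9.47 and 10.4 CPM (-0.99 ± 0.07, adjusted p = 2.52e-11). PANK1 went from 11.7, 13.4 and 12.9 CPM to 8.5, 7.21 and 8.19 CPM (-0.66 ± 0.10, adjusted p = 7.02e-06). ASCC3 read 233, 225 and 255 CPM (-0.62 ± 0.06, adjusted p = 5.84e-09). MDM2, at 391, 377 and 396 CPM, was -0.01 ± 0.05 from the depleted cells and did not pass (adjusted p = 0.817), having fallen with acetate alone and risen with mtDNA alone. Without combination replicate 2, 11 targets were higher and 8 lower: the falls of TP53INP1 (adjusted p = 0.0932), CYFIP2 (adjusted p = 0.135) and PTCHD4 (adjusted p = 0.271) no longer passed, and RPS27L rose (0.20, adjusted p = 0.0340). The 6 largest changes given above passed without it as well.

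The effect of each addition was then read in the presence of the other. Adding mtDNA to cells with acetate gave 5 targets higher and 3 lower (6.57% and 6.0% of all genes), with a median of -0.07 beside 0.00. The rises were E2F7 (43.7, 53.6 and 51.7 CPM, 0.44 ± 0.08, adjusted p = 8.97e-04), GADD45A (120.1, 124 and 124 CPM with acetate alone and 147, 174 and 147 CPM with both, 0.35 ± 0.07, adjusted p = 0.00229), SUSD6 (0.26 ± 0.06, adjusted p = 0.00361), MDM2 (0.21 ± 0.05, adjusted p = 0.00328) and RRM2B (0.13). FDXR fell to 9.78, 9.63 and 10.4 CPM from 14.2, 15.2 and 15.2 CPM (-0.58 ± 0.08, adjusted p = 2.53e-05), and DDB2 to 33.4, 33.8 and 33.4 CPM from 41.4, 40.4 and 42.0 CPM (-0.30 ± 0.05, adjusted p = 2.26e-04). ZMAT3 went from 434, 433 and 426 CPM to 378, 269.6 and 389.9 CPM, a difference of -0.32 ± 0.09 (adjusted p = 0.0215) that became -0.17 without combination replicate 2 (adjusted p = 0.0661). Its call was also lost without any 1 of the acetate libraries (adjusted p of up to 0.0686). The RRM2B call was lost in 5 of the leave-one-out fits, with an adjusted p of up to 0.131 without combination replicate 1.

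Adding acetate to cells with mtDNA raised 11 targets and lowered 8 (27.4% and 29.9% of all genes), with a median of 0.02 beside -0.02. GDF15 (1.96 ± 0.09, adjusted p = 9.12e-14), DRAM1 from 149, 140.2 and 148 CPM (1.13 ± 0.05, adjusted p = 1.52e-13) and RRM2B from 359, 350.4 and 366 CPM to 638, 596 and 636 CPM (0.80 ± 0.04, adjusted p = 1.01e-12) led the rises. TP53I3 from 17.7, 19.8 and 19.1 CPM (-0.91 ± 0.07, adjusted p = 1.73e-10), E2F7 (-0.88 ± 0.08, adjusted p = 4.31e-09) and PANK1 from 12.6, 12.4 and 12.4 CPM (-0.64 ± 0.10, adjusted p = 1.37e-05) led the falls. Groups were apart for all 6 genes. MDM2 fell by -0.27 ± 0.05 (adjusted p = 2.05e-05). The rise of RPS27L (0.20) was lost without 4 single libraries, with an adjusted p of up to 0.0936 without combination replicate 3.

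The acetate effect without mtDNA and the acetate effect with mtDNA share no libraries, so they can be set side by side. Over the 32 genes they had a Pearson r of 0.97 (0.95 without GDF15), beside 0.84 over all genes tested, as a description across genes that are not independent. Of the 23 targets called without mtDNA, 19 (82.6%) were called in the same direction with it, and these were all 19 of those called with mtDNA. For all genes the shares were 82.5% and 82.1%. The mtDNA effects without and with acetate, also from separate libraries, had an r of 0.82 over the targets and 0.66 over all genes. All 8 targets called with acetate were among the 10 called without it (80.0%), in the same direction: MDM2, DDB2, RRM2B, GADD45A, E2F7, ZMAT3, SUSD6 and FDXR. Over all genes the shares were 61.1% and 42.5%. GDF15 and NINJ1 made up the rest of the 10.

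**Figure D4:**
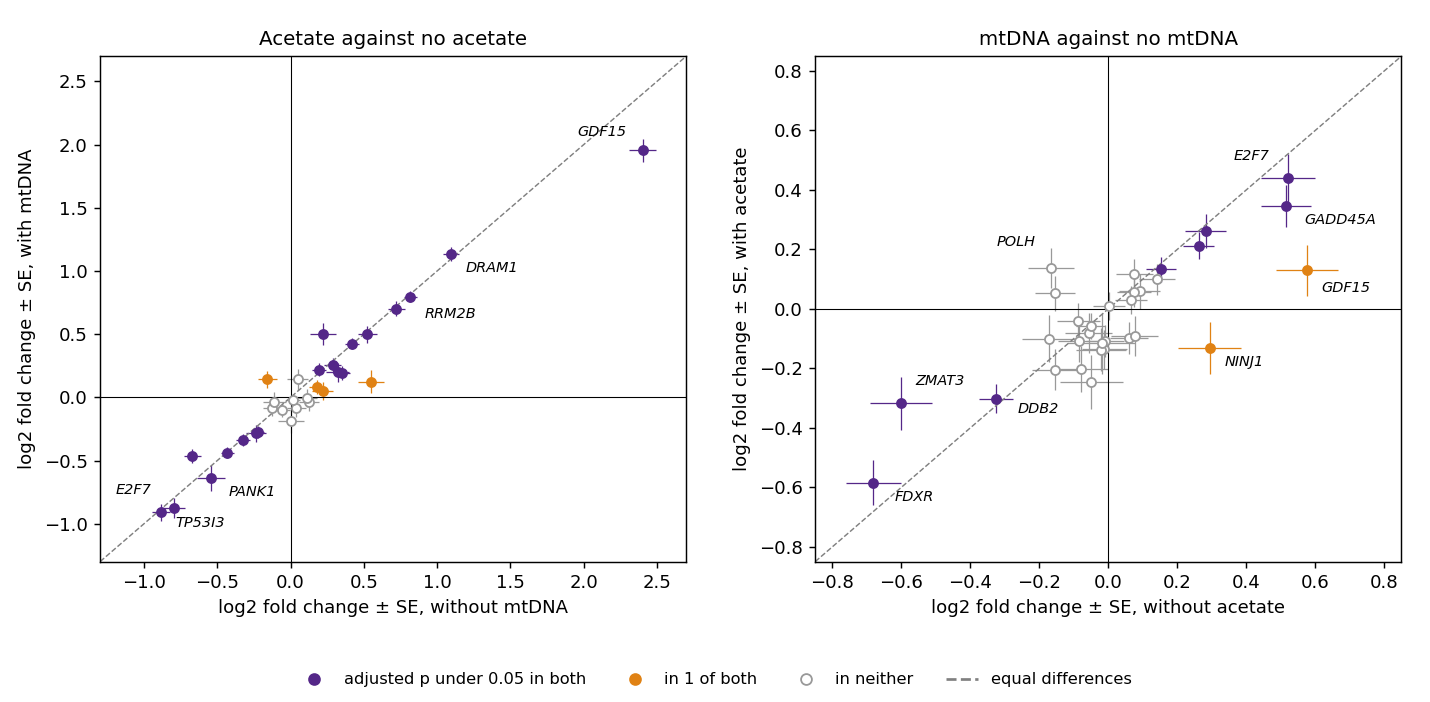
Left, log2 fold change with SE for acetate against none, in cells without mtDNA (horizontal) and with mtDNA (vertical). Right, the same for mtDNA against none, without acetate (horizontal) and with acetate (vertical). Each point is 1 of the 32 genes, coloured by whether it passed an adjusted p under 0.05, and the dashed line marks equal differences. The 19 genes that passed in both acetate comparisons and the 8 in both mtDNA comparisons have the same sign in each.

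A direct test of the difference, the interaction of acetate and mtDNA in edgeR, called 0 of the 32 targets higher and 0 lower, where 0.0765% and 0.583% of all genes were called. At an unadjusted p under 0.05 there were 5: GDF15 (-0.45, adjusted p = 0.116), NINJ1 (-0.43, adjusted p = 0.146), POLH (0.30, adjusted p = 0.164), ASCC3 (0.21, adjusted p = 0.317) and ZMAT3 (0.28, adjusted p = 0.388). DESeq2's Wald test called 1, POLH (0.33, adjusted p = 0.0472). ZMAT3 was called without combination replicate 2 (0.43, adjusted p = 8.55e-04) and GDF15 without combination replicate 1 (-0.55, adjusted p = 0.0303), so the count of 0 rests on those libraries. With no filter on low counts both were called as well, GDF15 at an adjusted p of 2.12e-05 and ZMAT3 at 0.0387. Of the 11 integrated stress response genes 7 had a negative interaction past the threshold, and of the other p53 targets SESN2 (-0.60) and PMAIP1 (-0.51) did.

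Senescence and the 2 additions can be set beside each other in the same way, since Sen (IR) against Prol uses none of their libraries. Between Sen (IR) against Prol and acetate against none, 15 targets were called in both, 6 in the same direction and 9 in opposite ones, and the r of 0.32 became -0.14 without GDF15, beside -0.21 over all genes. The same-direction calls were 26.1% of the 23 in either comparison, where over all genes the shares were 23.7% and 23.5%. TP53I3, MDM2, BTG2 and SPATA18 rose in senescence and fell with acetate, whereas CCNG1, XPC, DDB2, ZMAT3 and RPS27L did the reverse. Between Sen (IR) against Prol and mtDNA against none, 7 targets were called in both and all 7 had 1 direction: MDM2, GADD45A, SUSD6 and GDF15 rose, and DDB2, ZMAT3 and FDXR fell. The r was 0.52 over the targets (0.39 without GDF15) and 0.07 over all genes. These 7 were 30.4% of the 23 and 70.0% of the 10, where over all genes called in both with 1 direction the shares were 10% and 31.5%.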

How the data were processed

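PolyA RNA-seq was measured in 18 libraries, each placed in its group from its title (0 columns of values were left unassigned). Per the submitters' processing notes, Trimmomatic 0.36, STAR 2.5.2b on GRCh38 and featureCounts of Subread 1.5.2 were used, which are tools for trimming, alignment and counting per gene. The authors deposited the raw counts without normalisation, and TPM values, which correct for gene length and library total. The study's methods say that counting followed strand where libraries were strand-specific, but whether these libraries were is not given in the sources used here. Exons of XPC (24.59% of bases), TIGAR (19.4%), PHLDA3 (18.44%) and MDM2 (14.74%) overlap other genes in GENCODE v44. How reads in the shared bases were counted is not stated, so reads may have been added or lost there. Counts were used for all tests, and TPM only to compare levels between genes. Of 57500 genes, 485 had no symbol.

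edgeR 4.0.16 in R 4.3.3 was run with the quasi-likelihood test, 1 mean per group over all 18 libraries (TMM factors, filterByExpr by group, 16994 genes, Benjamini-Hochberg adjustment over all of them, threshold 0.05, common BCV 0.0644). CPM are counts scaled to the TMM-adjusted library total. The study's methods state DESeq2 only for another comparison, so DESeq2 1.42.0 was an alternative, beside its size factors, no filter, fits to the groups compared, a replicate block, a rule of nominal p under 0.05 with a log2 change over 0.5, and leaving out each library. The procedure was tested on simulated counts. The members and lists were chosen with earlier results of these data known. All 32 genes are named. MDM2, GDF15 and, in each comparison, the 3 largest rises and 3 largest falls past the threshold are given library by library where first described. Calls lost or gained without a library, and the checks of mtDNA and interferon-response genes, were chosen for mention after values were seen. A feature of the cells used is not reported here. No labels or files pair replicates between groups. Library totals ran from 24624886 to 46224280 counts, and the smallest count of any of the 32 genes in a library was 173 (PANK1). Promoter windows were RefSeq's (GRCh38.p14).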

Additional observations from a re-analysis of the deposited data

How the results depend on the processing

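Of 156 calls of a target in a comparison, 141 passed under every alternative apart from the rule of nominal p and fold (not included in this count; its own counts are below), 15 were lost in at least 1 of the alternatives included, and 0 changed direction in them. Fitting only the groups compared moved the median of Sen (IR) against Prol to 0.00934 and the falls with mtDNA from 3 to 6. With no filter on low counts, 5 targets instead of 3 fell with mtDNA on top of acetate, and the interaction called 1 higher and 1 lower. The replicate block also gave 5 there and lost no call. Of 45 same-numbered pairs of libraries from different groups, 0 had deviations correlated over 0.1 (median r 0.0037, against -0.0024 for different numbers). This shows no shared deviation by number, but it cannot exclude that same-numbered libraries came from the same experiment. DESeq2's Wald test called 1 interaction. The rule of nominal p and fold, which is stricter on size, called 5 higher and 3 lower in Sen (IR) against Prol, 12 higher with CCCP, 5 lower in Sen (IR) + CCCP against Prol, 6 higher and 4 lower with acetate, 3 higher with mtDNA, 5 higher and 4 lower with both, 0 higher and 1 lower for mtDNA on acetate, and 6 higher and 3 lower for acetate on mtDNA. The cause of these moves was not tested, apart from the size rule's own.

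Leaving out 1 library, the median ranged from 0.23 to 0.26 in Sen (IR) + CCCP against Prol, 0.10 to 0.12 with acetate, 0.000432 to 0.0302 with both, and 0.0291 to 0.0823 for acetate on mtDNA. Falls with mtDNA on acetate ranged from 2 to 5, with 5 without combination replicate 1 and 2 without combination replicate 2. Interactions ranged from 0 to 1 in each direction, with 1 lower without combination replicate 1 and 1 higher without combination replicate 2. With 3 libraries per group, the SE of a log2 difference ran from 0.0426 to 0.141 over the 32 genes.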
